A study of Homo sapiens with 6 samples.

Results

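Immune checkpoint ligands are surface or secreted proteins, and 1 enzyme, through which a tumour cell can restrain T cells, natural killer cells or macrophages. The genes described here were the 10 rows of the table whose symbol was CD274, PDCD1LG2, CD276, VTCN1, LGALS9, PVR, NECTIN2, CD47, IDO1 or TNFRSF14, of 23569 genes in all. The rule took them by name and used no values, but the list was chosen with earlier results of these data known. RNA-seq was performed on TFK1, a human cell line from an extrahepatic bile duct carcinoma, in 6 libraries. The control group (oeNC, genotype given as negative control, n = 3 libraries) and the group overexpressing the ubiquitin ligase STUB1 (oeSTUB1, n = 3) both had no further treatment listed. STUB1 coding sequence was carried by the lentiviral vector pHAGE and transduced cells were kept in puromycin, so oeSTUB1 is a stably selected population and not a set of independent clones, and what the control cells carried is not given in the sources used here. The series asked which tumour suppressor genes respond to STUB1 through UHRF1 and DNMT1, the pair that maintains DNA methylation, and the checkpoint genes were read from the same comparison. No immune cells were added to the cultures, so ligand and receptor genes were both read from the TFK1 cells, as RNA and not as protein.

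These genes act in several separate pathways. The proteins of CD274 (PD-L1) and PDCD1LG2 (PD-L2) bind PD-1 on T cells, and CD276 (B7-H3) and VTCN1 (B7-H4) are members of the same B7 family. PVR and NECTIN2 are nectin-like adhesion proteins that bind the inhibitory receptor TIGIT and the activating receptor CD226 on T and natural killer cells. CD47 gives macrophages a "do not eat me" signal through SIRPA, and LGALS9 encodes galectin-9, a sugar-binding ligand of the receptor TIM-3. TNFRSF14 (HVEM) binds BTLA and CD160, and IDO1 breaks down tryptophan, which T cells need. Interferon-gamma, acting through JAK kinases and IRF1, is a well known inducer of CD274 and IDO1.

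The promoter sequences are given first because the study concerns DNA methylation, which is set at CpG sites. RefSeq windows of 300 bases (GRCh38.p14, 250 bases before to 50 after a transcription start) were matched by symbol for 8 of the 10 members, 9 windows in all, with 2 windows for CD276 and none for PDCD1LG2 and IDO1. The number of CpG sites in a window ran from 2 in LGALS9 to 45 in CD47, against a median of 14 over 35116 windows. CD47 stood at percentile 96.5 and LGALS9 at percentile 10.97 of all windows. Both genes passed the test described below, while VTCN1 and TNFRSF14 were too low to be tested. Whether the number of CpG sites bears on the response was not tested. The other windows held 37 and 28 sites for CD276, 27 for PVR, 26 for NECTIN2, 22 for CD274, 12 for TNFRSF14 and 7 for VTCN1. No methylation was measured in these libraries. The 250 bases before the start are shown for the 3 members whose RNA changed, 5′ to 3′ on the strand of the gene with each CpG in capitals, 39 in CD47, 27 in PVR and 1 in LGALS9.
CD47 (chr3:108091032-108091281, minus strand): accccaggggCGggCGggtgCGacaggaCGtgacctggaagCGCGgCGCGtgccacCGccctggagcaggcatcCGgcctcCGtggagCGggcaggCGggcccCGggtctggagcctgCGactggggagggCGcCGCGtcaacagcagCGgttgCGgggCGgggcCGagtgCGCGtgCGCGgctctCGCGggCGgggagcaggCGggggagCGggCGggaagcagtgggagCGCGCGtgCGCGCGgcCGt
PVR (chr19:44643660-44643909, plus strand): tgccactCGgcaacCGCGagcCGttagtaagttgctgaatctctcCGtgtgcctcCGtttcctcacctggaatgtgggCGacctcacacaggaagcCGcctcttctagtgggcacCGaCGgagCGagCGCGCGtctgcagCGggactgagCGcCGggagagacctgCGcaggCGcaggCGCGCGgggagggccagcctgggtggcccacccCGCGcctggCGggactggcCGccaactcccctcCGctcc
LGALS9 (chr17:27630938-27631187, plus strand): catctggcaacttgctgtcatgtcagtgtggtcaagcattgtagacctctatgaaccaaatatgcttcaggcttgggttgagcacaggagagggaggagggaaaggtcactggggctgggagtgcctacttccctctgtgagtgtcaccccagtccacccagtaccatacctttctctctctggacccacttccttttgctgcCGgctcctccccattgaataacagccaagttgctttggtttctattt

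CD274 is shown because its induction by interferon runs through its promoter. The motifs searched, on both strands, were GAS (TTCNNNGAA, the interferon-gamma activated site), the ISRE core (a pair of GAAA repeats spaced by any 2 bases, bound by IRF factors), AP-1 (TGANTCA), the E-box (CACGTG) and the GC box (GGGCGG), and matches are in capitals. The window held 2 overlapping ISRE cores that began 208 and 202 bases before the start, 1 GAS motif at 125 bases and 1 GC box at 63 bases.
CD274 (chr9:5450292-5450541, plus strand): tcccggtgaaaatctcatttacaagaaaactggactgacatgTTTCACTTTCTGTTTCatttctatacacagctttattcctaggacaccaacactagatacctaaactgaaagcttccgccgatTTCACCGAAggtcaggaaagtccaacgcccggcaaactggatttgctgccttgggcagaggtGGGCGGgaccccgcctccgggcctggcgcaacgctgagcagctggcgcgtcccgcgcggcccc
An ISRE core was found in 3.57% of all windows and a GAS motif in 7.66%. Among the 9 member windows, 2 had an ISRE core (CD274 and LGALS9, where it began 9 bases before the start) and 1 had GAS (CD274). The AP-1 motif (7.71% of all windows) was found in 1 window, that of VTCN1, and the E-box (7.26%) in 0. The GC box (45.0% of all windows) was found in 5 windows. It had 7 and 2 copies in the windows of CD276, 6 in CD47, 3 in NECTIN2 and 1 in CD274, and the copies of some windows overlap. A match is a description of the letters and was not tested as a binding site.

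The table gave FPKM, in which the fragments of a gene are divided by its length and by the size of the library. Library sizes recovered from the table lay between 33106564 and 36744521 fragments. STUB1 itself rose from 32.3 ± 1.23 FPKM in oeNC to 66.1 ± 7.70 in oeSTUB1 (mean ± SD, n = 3), a log2 fold change of 1.03 with an adjusted p of 0.00064 (limma), and this value mixes vector and endogenous transcripts and overlaps JMJD8 on the other strand. Replicate 2 of oeSTUB1 stood apart, since chi-square divided by its degrees of freedom was 76.7 and 71.1 against its 2 fellow replicates, which differed from each other by 9.44. The sources do not say whether the 3 libraries of a group came from separate cultures, so p-values measure the spread between libraries, which may be technical. Of 10 biliary epithelial markers all were detected and 7 differed between the groups, 2 higher and 5 lower in oeSTUB1. Over all tested genes, 7.01% were higher and 6.59% lower at an adjusted p under 0.05 in limma. The keratin genes KRT8 and KRT18 were at 3216 and 3964 FPKM in oeNC and fell to 2172 and 2488 in oeSTUB1, calls kept in 8 of 15 alternative settings, while KRT19, a standard bile duct keratin, was at 0.453 FPKM in oeNC and 2.97 in oeSTUB1, and EPCAM (log2 fold change −1.13) and CDH1 (−1.09) fell. MUC1 rose (0.75), and KRT7, at 502 FPKM in oeNC and 704 in oeSTUB1, did not pass the test (adjusted p = 0.082 in limma). Summed over the biliary list, FPKM lay from 7433 to 8010 in the control libraries and from 4736 to 6275 in the oeSTUB1 libraries. KRT8 and KRT18 made up most of each sum.

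Across all genes, 2088 of 15353 tested genes (13.6%) differed at a Benjamini-Hochberg adjusted p under 0.05 in limma, 1076 higher (7.01%) and 1012 lower (6.59%) in oeSTUB1. Of the 10 checkpoint ligand genes, 6 had a mean of at least 0.1 FPKM and were tested, and the other 4 (PDCD1LG2, VTCN1, IDO1 and TNFRSF14) were below it. CD47 and PVR rose and LGALS9 fell. No member also passed an absolute log2 fold change over 1, which 5.2% of tested genes did, 2.79% higher and 2.4% lower. The median log2 fold change of the 6 tested members was 0.18, with 4 above 0, beside 0.02 over all tested genes. With 6 genes these shares are a description only. In 5 of the 6, all but CD274, the 3 values of one group lay wholly above the other, which was so for 38.8% of all tested genes.

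**Figure D1:**
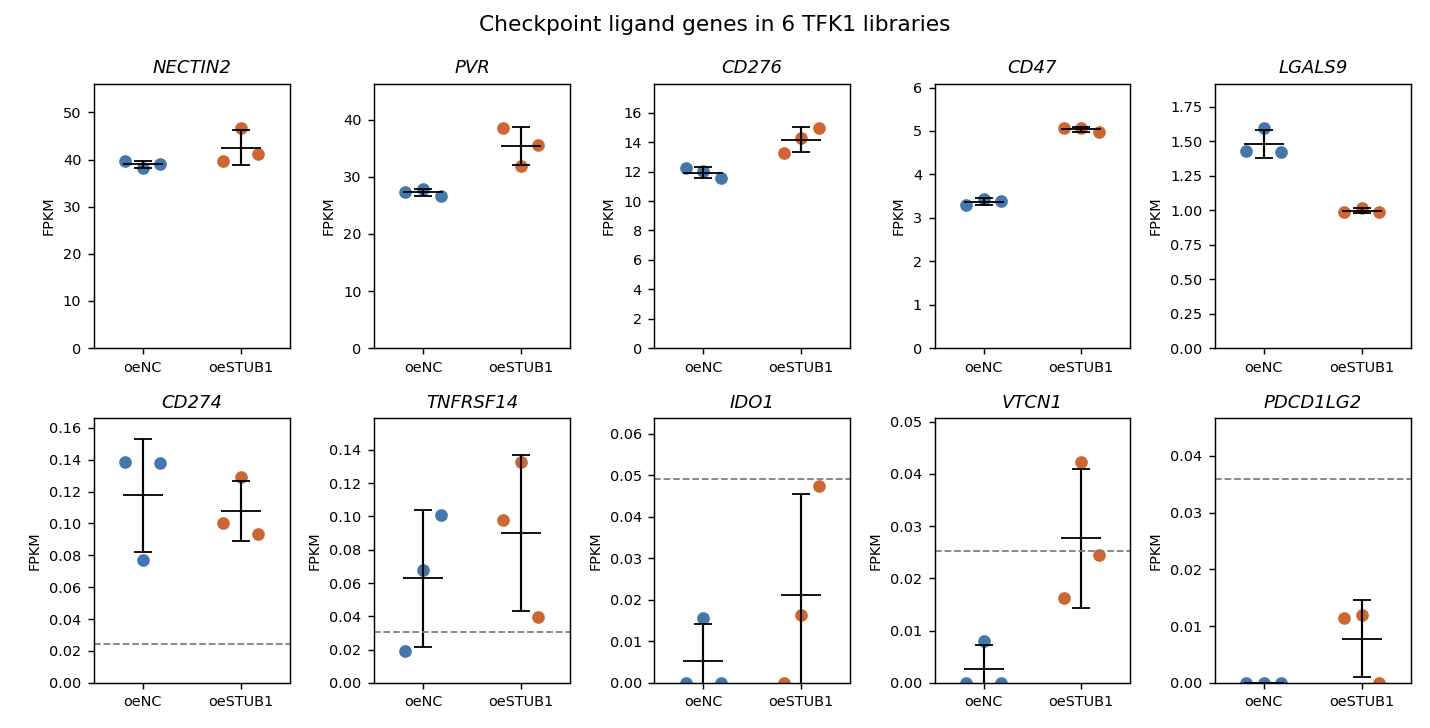
Each panel plots the FPKM of 1 gene in the 3 oeNC (blue) and 3 oeSTUB1 (orange) libraries on a linear axis from 0, with bars for mean and SD. The dashed line marks the FPKM worth 3 fragments in the library where that is largest, and is drawn where it can be seen. In every oeSTUB1 library CD47, PVR, CD276, VTCN1 and, only just, NECTIN2 lie above all oeNC values, and LGALS9 lies below them. PDCD1LG2 and IDO1 stay at or under the line in all 6.

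The levels of the members spanned a wide range, and FPKM, being per length, was used to set them side by side. The gene lengths behind it come from an annotation that is not given, and the order depends on them. PVR had more fragments than NECTIN2 (17335 against 14088 in oeNC, 21575 against 14725 in oeSTUB1), yet ranked below it by FPKM. In oeNC, NECTIN2 was highest at 39.0 ± 0.779 FPKM, which placed it at percentile 94.3 of all genes in the table. PVR followed at 27.3 ± 0.629 (percentile 91.7) and CD276 at 11.9 ± 0.372 (percentile 82.1). CD47 was at 3.38 ± 0.0705 FPKM (percentile 63.6) and LGALS9 at 1.48 ± 0.1003 (percentile 55.1). CD274 was at 0.118 ± 0.0353 FPKM (percentile 36.3) and TNFRSF14 at 0.0628 ± 0.0410 (percentile 31.9), and these neighbours overlapped within their SD. IDO1, VTCN1 and PDCD1LG2 came last and were not separated by their spread. The order of the first 7 genes was the same in oeSTUB1. Within the 10 genes, NECTIN2, PVR and CD276 were thus the most abundant, whereas CD274 was covered by 10 to 19 fragments a library and PDCD1LG2 by at most 1.

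CD274, which encodes PD-L1, lies at chr9:5450503-5470566 on the plus strand (GENCODE release 29, GRCh38). Its FPKM was 0.138, 0.0769 and 0.138 in oeNC replicates 1 to 3 and 0.101, 0.129 and 0.0936 in oeSTUB1 replicates 1 to 3. These values rest on 18, 10 and 19 fragments and on 13, 16 and 12 fragments. The groups overlapped, and the lowest value of all was in oeNC. The log2 fold change was −0.06 (SE 0.246, 95% interval −0.63 to 0.51, adjusted p = 0.90). Over the summed fragments, 47 in oeNC and 41 in oeSTUB1, the ratio per library fragment was 0.910, with an exact counting interval of 0.584 to 1.41 that covers counting error only. The smallest change that the test could detect at this depth was not computed, and these bounds do not give it. Without oeNC replicate 1 or without oeNC replicate 3 the sign turned, to 0.01 in both cases. In the RNA of bulk cultures, fewer cells with a transcript and less of it per cell cannot be told apart.

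PDCD1LG2, the gene of the second PD-1 ligand, lies next to CD274 on chromosome 9. It had 0, 0 and 0 fragments in oeNC and 1, 1 and 0 in oeSTUB1. All 6 libraries were at or under the floor of 3 fragments, which corresponds to 0.0323 to 0.0358 FPKM, so no fold change is given.

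CD276, the most abundant of the 4 B7 family members described here, lies at chr15:73683966-73714518 on the plus strand. Its FPKM was 12.3, 12.02 and 11.5 in oeNC and 13.3, 14.3 and 15.0 in oeSTUB1. Every oeSTUB1 value was above every oeNC value, but the difference, 11.9 ± 0.372 against 14.2 ± 0.862 FPKM, did not pass the test (log2 fold change 0.24, SE 0.0809, 95% interval 0.06 to 0.43, adjusted p = 0.087). Without oeSTUB1 replicate 2 it passed, with a log2 fold change of 0.24 and an adjusted p of 0.038 in limma.

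VTCN1, another inhibitory B7 gene, on chromosome 1, had 0, 1 and 0 fragments in oeNC and 2, 5 and 3 in oeSTUB1. The groups did not overlap, at levels of 0.00269 ± 0.00465 and 0.0276 ± 0.0133 FPKM. The ratio over the summed 1 and 10 fragments was 10.4, with an exact counting interval of 1.48 to 453. The gene was below the filter, and fitted without a filter its adjusted p was 0.11.

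PVR, whose protein is the high-affinity ligand of TIGIT, lies at chr19:44643798-44663583 on the plus strand. Its FPKM was 27.4, 27.9 and 26.6 in oeNC and 38.6, 31.9 and 35.7 in oeSTUB1. The 3 oeSTUB1 libraries were all above the control libraries but unequal among themselves, with replicate 2 lowest. PVR rose from 27.3 ± 0.629 to 35.4 ± 3.37 FPKM, a log2 fold change of 0.37 (SE 0.0880, 95% interval 0.16 to 0.57, adjusted p = 0.031). The call was kept in 7 of 15 alternative settings. The settings that lost it included quantile normalization (adjusted p = 0.11), eBayes without trend (0.067) and the fits without any single library other than oeSTUB1 replicate 2, where the log2 fold change stayed between 0.30 and 0.38 and the adjusted p lay between 0.079 and 0.12. Without oeSTUB1 replicate 2 the log2 fold change was 0.44 and the adjusted p 0.0014. The annotation places CEACAM19 on the same strand and AC243964.2 on the opposite strand within the span of PVR, and whether counting used strand is not given in the sources used here.

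NECTIN2, the second TIGIT ligand gene of the list, lies on the same chromosome at chr19:44846175-44889228 on the plus strand, with the antisense gene AC011481.2 overlapping it. Its FPKM was 39.7, 38.2 and 39.0 in oeNC and 39.7, 46.8 and 41.1 in oeSTUB1. The lowest oeSTUB1 value was only just above the highest control value, and replicate 2 stood highest. The means of 39.0 ± 0.779 and 42.5 ± 3.72 FPKM did not differ in the test (log2 fold change 0.12, SE 0.0837, 95% interval −0.07 to 0.32, adjusted p = 0.37). Without oeSTUB1 replicate 2 the log2 fold change was 0.05.

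CD47, the macrophage signal, lies at chr3:108043094-108091862 on the minus strand. Its FPKM was 3.30, 3.44 and 3.38 in oeNC and 5.07, 5.07 and 4.97 in oeSTUB1. The groups were tight and far apart, and the values rest on 1162 to 1260 fragments in oeNC and 1701 to 1773 in oeSTUB1. CD47 rose from 3.38 ± 0.0705 to 5.04 ± 0.0566 FPKM, a log2 fold change of 0.56 (SE 0.0866, 95% interval 0.36 to 0.76, adjusted p = 0.0052). The call was kept in 15 of 15 alternative settings, with log2 fold changes of 0.46 to 0.58 and adjusted p-values of 0.0020 to 0.039. Without oeSTUB1 replicate 2 the log2 fold change was 0.56. SIRPA, the gene of the CD47 receptor, was also transcribed in TFK1, at 11.9 ± 0.683 and 10.6 ± 1.18 FPKM, and did not pass the test (log2 fold change −0.16, 95% interval −0.40 to 0.08, adjusted p = 0.34).

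LGALS9, the galectin-9 gene, lies at chr17:27629798-27649560 on the plus strand, where AC015688.4 overlaps it on the same strand. Its FPKM was 1.43, 1.60 and 1.42 in oeNC and 0.984, 1.01 and 0.983 in oeSTUB1, from 159, 178 and 168 and from 109, 108 and 108 fragments. The 3 oeSTUB1 values were close to each other and all below the controls. LGALS9 fell from 1.48 ± 0.1003 to 0.994 ± 0.0180 FPKM, a log2 fold change of −0.53 (SE 0.124, 95% interval −0.82 to −0.24, adjusted p = 0.029). The call was kept in 8 of 15 alternative settings. The settings that lost it included the fit with no filter on low levels (adjusted p = 0.068) and the fits without any single library other than oeSTUB1 replicate 2, with log2 fold changes between −0.56 and −0.48 and adjusted p-values between 0.071 and 0.14. Without oeSTUB1 replicate 2 the adjusted p was 0.016. The near-identical copies LGALS9B (3, 6 and 4 fragments in oeNC, 4, 6 and 9 in oeSTUB1) and LGALS9C (0, 0 and 2, then 1, 1 and 6) were both under the filter, and reads shared between the 3 genes could have been split or dropped in counting.

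LGALS9 is also transcribed by macrophages, and the immune markers are given beside it. They were read from a cell line to which no immune cells were added. Of 20 markers, 16 were under 1 FPKM in every library, and CD3G, CD2 and MS4A1 had at most 3 fragments in each. Of the list, 0 rose and 1 fell, CD68 (a lysosomal protein of macrophages that other cells also make), from 27.2 ± 0.442 to 19.2 ± 0.163 FPKM (log2 fold change −0.50, adjusted p = 0.0030). Summed levels of the list lay from 34.7 to 38.0 FPKM in the control libraries and from 28.1 to 29.5 in the oeSTUB1 libraries, and CD68 made up most of each sum. The macrophage markers CD163 and CSF1R were at or below 0.0490 FPKM on average in both groups. CD14, however, was at 5.05 FPKM in oeNC and 5.24 in oeSTUB1. LYZ (0.944 and 1.38) and TYROBP (0.783 and 1.13) also passed 1 FPKM in some libraries. A part of this list in the result for LGALS9 was not tested. Of 8 fibroblast and endothelial markers, 3 were tested and 0 differed, with summed levels of 7.10 to 8.65 and 7.65 to 10.5 FPKM.

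TNFRSF14, the HVEM gene on chromosome 1, had 2, 7 and 11 fragments in oeNC and 10, 13 and 4 in oeSTUB1, or 0.0628 ± 0.0410 and 0.0899 ± 0.0470 FPKM. The groups overlapped widely, and the ratio over the summed 20 and 27 fragments was 1.41 with an exact counting interval of 0.761 to 2.65. IDO1, on chromosome 8, had 0, 1 and 0 fragments in oeNC and 0, 1 and 3 in oeSTUB1. All 6 libraries were at or under 3 fragments, which corresponds to 0.0442 to 0.0490 FPKM, and no fold change is given. Fitted without a filter, the adjusted p was 0.66 for TNFRSF14, 0.54 for IDO1 and 0.42 for PDCD1LG2.

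**Figure D2:**
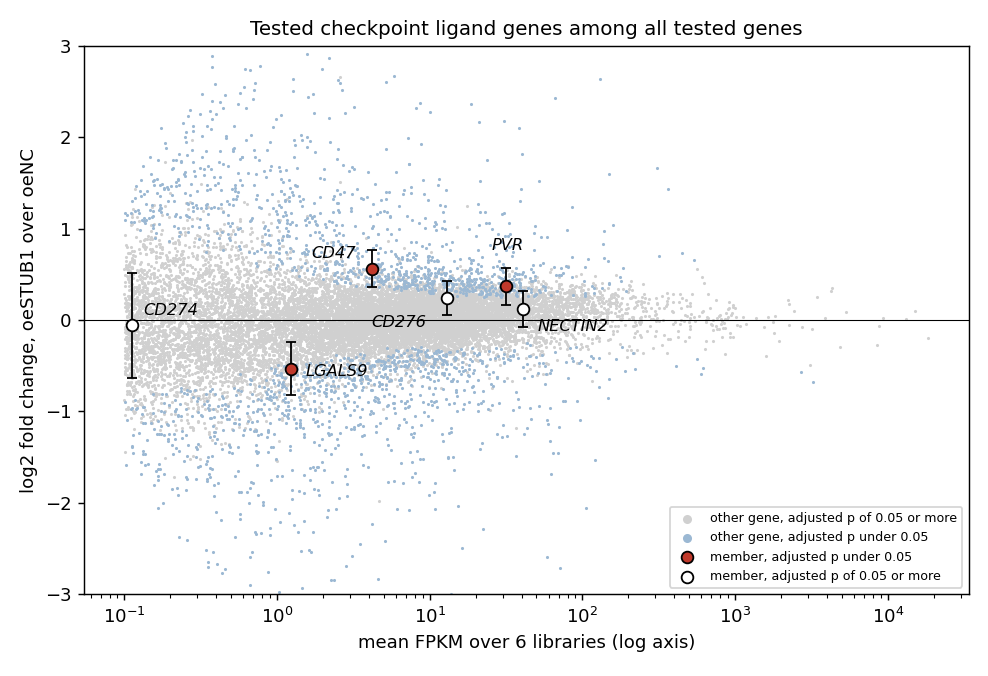
Each point is a tested gene, with its mean FPKM over 6 libraries on a log axis and its log2 fold change (oeSTUB1 over oeNC). Large points are the 6 tested members with 95% intervals, filled where the adjusted p was under 0.05, and 21 genes beyond 3 in absolute log2 fold change lie outside the axis. CD47 and PVR are filled above 0 and LGALS9 below it, all inside the range that other called genes occupy.

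**Figure D3:**
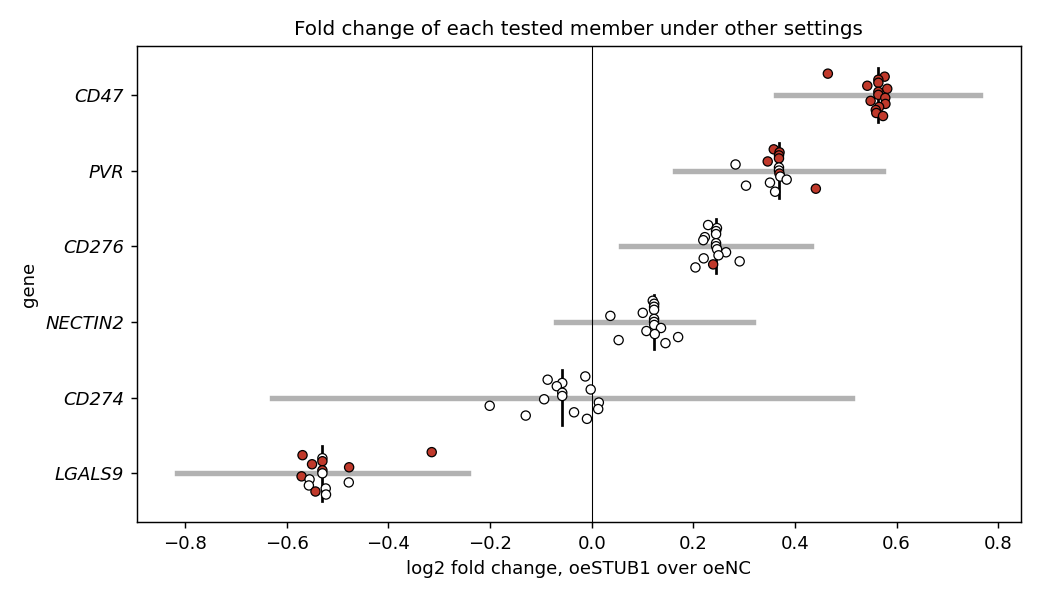
The log2 fold change of each tested member (horizontal axis) is drawn for each alternative setting as a point, filled where the adjusted p was under 0.05, with the main value as a black line and its 95% interval in grey. CD47 is filled throughout, PVR and LGALS9 are filled in part of the settings, CD276 in 1, and NECTIN2 and CD274 in 0.

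Related ligands outside the list were read in the same way. Of 32 immune ligand genes 31 were in the table and 24 were tested. Of the 24, 6 were higher and 0 lower in oeSTUB1, beside 7.01% and 6.59% over all tested genes. Their median log2 fold change was 0.19. Without oeNC replicate 2 the number higher was 2, without oeNC replicate 1 or 3 it was 3, and without oeSTUB1 replicate 1 it was 4. With no filter it was 4 and with a filter at 1 FPKM it was 3. The number lower was 1 with a pseudocount of 1 or median-ratio scaling, and 2 with eBayes without trend or limma-voom. CD70, a ligand of the T cell receptor protein CD27, rose from 0.263, 0.316 and 0.278 FPKM to 1.41, 2.05 and 1.61 (log2 fold change 2.20, SE 0.178, adjusted p = 0.00034). TNFSF14 (LIGHT), a ligand of the TNFRSF14 protein, rose from 6, 2 and 5 fragments to 52, 33 and 73 (log2 fold change 1.59, adjusted p = 0.0089), while TNFRSF14 itself stayed under the filter. TNFSF10 (TRAIL), a death receptor ligand, rose from 0.212, 0.164 and 0.364 FPKM to 0.670, 0.819 and 0.656 (log2 fold change 1.27, adjusted p = 0.013), a call lost without oeNC replicate 1 or 2 (adjusted p 0.058 and 0.053). Because 0.1 was added to FPKM before the logarithm, such fold changes understate the change of genes at low level, and on recovered fragments the value for TNFSF14 was 3.56. The other 3 genes, named after their values were seen, were CD24 (0.58), a ligand of SIGLEC10 on macrophages, NECTIN3 (0.66), which pairs with NECTIN2 and PVR at cell contacts, and LGALS1 (0.70), another galectin. The calls of NECTIN3 and LGALS1 were each kept in 9 of 15 settings, with adjusted p-values up to 0.093 and 0.11 in limma, and both were lost with no filter, without any one oeNC library and without oeSTUB1 replicate 1, as were that of NECTIN3 without oeSTUB1 replicate 3 and that of LGALS1 with eBayes without trend. The call of CD24 was lost without oeNC replicate 2 (0.059) or 3 (0.071). The T cell costimulators CD80 and CD86 were under the filter.

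Of the receptors that these ligands meet, 17 were in the table and 15 of them were under 1 FPKM in every library, SIRPA and LAG3 being the others. Of the 17, 4 were tested (SIRPA, LAG3, TNFRSF9 and PVRIG) and 0 passed, with adjusted p-values of 0.34, 0.093, 0.068 and 0.79 in limma. With quantile normalization, eBayes without trend or limma-voom, 1 of them was higher. PDCD1, CTLA4, CD28, TIGIT, SIRPG, TNFRSF4 and LILRB1 had at most 3 fragments in every library. A list around tryptophan and kynurenine held genes of the IDO1 pathway and others outside it, such as a tRNA ligase. Of its 11 tested genes, 1 was higher and 0 lower, beside 7.01% and 6.59% over all tested genes. Its median log2 fold change was −0.12. Without oeSTUB1 replicate 2 the counts were 2 and 3, and without any other single library 0 and 0. With quantile normalization or eBayes without trend, 0 were higher. The higher gene was WARS1, the tryptophan tRNA ligase, which is named after its value was seen (log2 fold change 0.29, adjusted p = 0.030, kept in 7 of 15 settings). KYNU, which acts further down the kynurenine pathway, was at 11.98, 12.1 and 13.1 FPKM in oeNC and 11.1, 11.9 and 12.1 in oeSTUB1, with a log2 fold change of −0.08 and an adjusted p of 0.53.

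Genes that act on the ligand proteins or their sugars were considered next, since STUB1 is itself a reported ubiquitin ligase of PD-L1. Of 23 such genes tested, 2 were higher and 2 lower, beside 7.01% and 6.59% over all tested genes. Their median log2 fold change was 0.10. Leaving out oeSTUB1 replicate 2 raised the number higher to 8, while without any one oeNC library it was 1. The number lower was 1 without any one oeNC library or without oeSTUB1 replicate 1. STUB1 was one of the higher genes, and it is the gene that was overexpressed. B3GNT3, a glycosyltransferase that modifies PD-L1, was at 5.54, 6.005 and 6.74 FPKM in oeNC and fell to 3.12, 2.71 and 3.96 in oeSTUB1 (log2 fold change −0.89, SE 0.151, adjusted p = 0.0078), a call kept in 15 of 15 settings. FKBP5, a co-chaperone, also fell (−0.55). B3GNT3 and FKBP5 are named after their values were seen. CMTM6, which keeps PD-L1 at the cell surface, was at 27.8, 28.1 and 25.2 FPKM in oeNC and 29.4, 27.1 and 26.2 in oeSTUB1, a log2 fold change of 0.03 (95% interval −0.16 to 0.22, adjusted p = 0.86) whose sign turned with quantile normalization (−0.06).

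Of 29 tested genes that can induce checkpoint ligands, 5 were higher and 1 lower, beside 7.01% and 6.59% over all tested genes. Their median log2 fold change was 0.20. Without oeSTUB1 replicate 2 the number higher was 9 and the number lower 2. Without oeNC replicate 1 or 2 the number higher was 3, and without oeSTUB1 replicate 1, with median-ratio scaling or with quantile normalization the number lower was 2. IRF1, the factor that carries interferon-gamma signalling to the CD274 promoter, rose from 2.96, 3.07 and 4.31 FPKM to 5.41, 6.41 and 6.12 (log2 fold change 0.79, SE 0.155, adjusted p = 0.015), a call lost without oeNC replicate 1 (0.064) or replicate 2 (0.070). JAK2, which lies on chromosome 9 near CD274, was at 2.40, 2.19 and 2.45 against 2.67, 2.08 and 2.59 FPKM (log2 fold change 0.05, adjusted p = 0.83), and without oeSTUB1 replicate 1 its sign turned, to −0.01. The hypoxia factor EPAS1 fell (log2 fold change −1.10, adjusted p = 0.0022) while its relative HIF1A rose (0.98, adjusted p = 0.0025). STAT3 (0.59), IRF7 (0.84) and the NF-kB subunit RELB (0.76) were the other higher genes and, like HIF1A, are named after their values were seen.

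**Figure D4:**
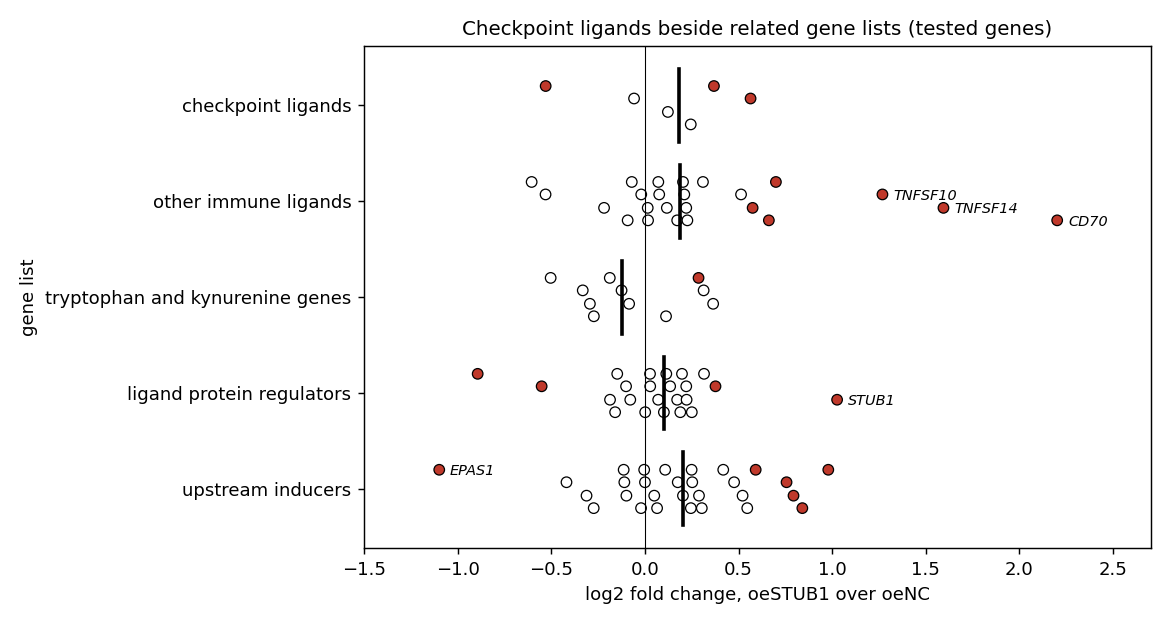
Each point is a tested gene of 1 of 5 lists, placed by its log2 fold change (oeSTUB1 over oeNC) and filled where the adjusted p was under 0.05, and vertical bars mark list medians. The medians lie between −0.12 and 0.20, and the named points are called genes beyond 1 in absolute log2 fold change, with CD70 farthest to the right.

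To set each member beside its surroundings, the 5 tested genes on either side along the chromosome were read, in the gene order of RefSeq, which placed 14849 tested genes (96.7%). No limit was set on distance, so a neighbour can lie far from the member. Over all tested genes, 7.01% were called higher and 6.59% lower. Around CD47, 0 of 10 neighbours were higher and 1 was lower (LINC00488, −1.04), with a median log2 fold change of 0.09. Around PVR, 3 were higher and 0 lower (ZNF285, 0.96, BCL3, 0.52, and BCAM, 0.41), with a median of 0.26 beside 0.05 for all tested genes of chromosome 19. NECTIN2, whose neighbours overlap with those of PVR, had 4 higher and 1 lower, the last being the apolipoprotein gene APOC1 (−1.49). Around LGALS9, 0 were higher and 4 lower, among them its nearest tested neighbours on both sides, KSR1 (−0.72) and LYRM9 (−1.03), and WSB1 (−0.58). The median of those 10 was −0.34, beside −0.04 for chromosome 17. CD274 and PDCD1LG2 share most of their neighbours, of which 3 were higher and 1 lower, and the higher ones were INSL4 (0.58), RANBP6 (0.46) and UHRF2 (0.30). Chromosome 9 as a whole had a median of 0.16, with 403 of 604 tested genes above 0. CD276 had 1 higher neighbour (STRA6, 0.53), VTCN1 had 0 in either direction, and TNFRSF14 had 2 lower (ARHGEF16, −0.60, and MEGF6, −0.65). IDO1 had 4 higher, of which TCIM (1.52) and SFRP1 (1.45) had the largest fold changes, while IDO1 itself stayed at the floor.

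**Figure D5:**
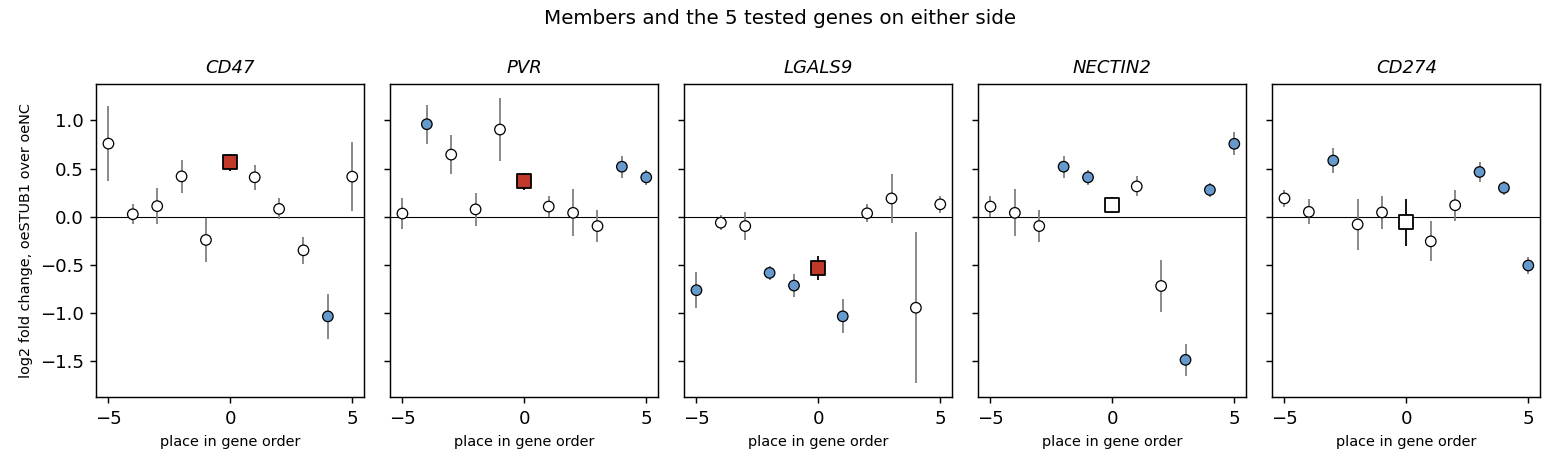
For 5 members, the log2 fold change (oeSTUB1 over oeNC) of the member at place 0 and of the 5 tested genes on either side is plotted in gene order with bars of 1 SE, filled where the adjusted p was under 0.05. Filled neighbours lie below 0 around LGALS9 and above 0 around PVR, and in the CD47 panel the member itself is the sole filled point above 0.

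The genes whose values most resembled a member over the 6 libraries were read for CD274 and CD47, over genes whose mean reached 1 FPKM. For CD274, Pearson's r of log2(FPKM + 0.1) was highest with LOC105371592 (0.983), NFE2L1-DT (0.95) and TEAD4 (0.946), of 11375 genes. For CD47 it was highest with UHRF2 (0.998), a relative of UHRF1, PARP12 (0.998) and DLC1 (0.997), of 11374 genes. All points share the same 6 libraries and the same 2 groups, and the highest of so many values is given as a description with no test.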

How the data were processed

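RNA-seq of 6 TFK1 libraries was analysed, with groups and replicate numbers taken from the sample labels, and 0 value columns belonged to no mapped library. The authors deposited FPKM values for 23569 genes. The submitters' processing notes name fastp 0.20.1, HISAT2 2.1.0, HTSeq 0.11.2, R 3.2.0, DESeq2 1.22.2 and GRCh38.p13, and the annotation and strand setting are not given in the sources used here.

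From the deposited FPKM, whole fragments were recovered for 23569 genes (100.0%), as the smallest gene length at which all 6 values are whole, and FPKM recomputed from them differed by at most 4.9e-06. A divisor common to all libraries would go unseen, and the true fragments could then be more. The groups entered a linear model in limma 3.58.1 (R 4.3.3) on log2(FPKM + 0.1), with moderated variances that follow the mean and a two-sided test, for genes whose mean FPKM reached 0.1, and p-values were adjusted by Benjamini-Hochberg over 15353 genes. Both steps were tested on simulated data.

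The members and the gene lists were chosen with earlier results of these data known. All members and STUB1 are named. From the other lists, up to 5 called genes beyond 1 in absolute log2 fold change were named, with JAK2, IRF1, CMTM6, KYNU, LGALS9B and LGALS9C whatever their values, up to 3 called neighbours of a member, and the 3 genes most like CD274 and CD47. Some genes that this rule or a list holds are not reported here. The results were recomputed with a pseudocount of 1 or 0.01, without a filter, with a filter at 1 FPKM, median-ratio scaling, quantile normalization, eBayes without trend, a replicate block, leaving out each library, and limma-voom on recovered fragments. Python 3.11.15 was used for the other steps. Coordinates of genes are from GENCODE release 29. Intervals for ratios of fragments are exact binomial at 95% and cover counting error only.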

Additional observations from a re-analysis of the deposited data

How the results depend on the processing

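Leaving out 1 library at a time gave between 477 and 2274 higher and between 456 and 1838 lower genes over the whole table (1076 and 1012 with all 6 libraries), with the highest counts without oeSTUB1 replicate 2, and 331 to 448 higher and 285 to 406 lower by the rule that also asks for an absolute log2 fold change over 1. By that rule a pseudocount of 1 gave 120 higher and 120 lower, and a mean FPKM of at least 1 gave 202 and 182, against 429 and 369. Among the members, leaving out 1 library gave 1 to 3 higher and 0 to 1 lower genes. The number of members higher was 1 with quantile normalization, with eBayes without trend and with the replicate block, where PVR was lost, and the number lower was 0 without a filter and with the replicate block, where LGALS9 was lost. The cause was not tested. The replicate block gave 1488 calls over all genes against 2088, and the adjusted p was 0.026 for CD47, 0.073 for PVR and 0.077 for LGALS9. No pairing of the libraries by number was seen, since the deviations of same-numbered libraries correlated at −0.049, −0.052 and 0.062. With 3 libraries in each group, a weak pairing could go unseen. The sign turned for CD274 without oeNC replicate 1 (0.0141) and without oeNC replicate 3 (0.0128), for JAK2 without oeSTUB1 replicate 1 (−0.0141), and for CMTM6 with quantile normalization (−0.0590), without oeNC replicate 3 (−0.0223) and without oeSTUB1 replicate 1 (−0.0193), none of which passed the test. Over single libraries left out, CD274 ranged from −0.20 to 0.01, JAK2 from −0.01 to 0.16 and CMTM6 from −0.02 to 0.06. Depth limits CD274, TNFRSF14, VTCN1, IDO1 and PDCD1LG2, which had at most 19 fragments in any library.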
